A study of Mus musculus with 8 samples.

Results

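The colony-stimulating factor family comprises 4 ligand genes (Csf1, Csf2, Csf3 and Il34) and 4 receptor chain genes (Csf1r, Csf2ra, Csf2rb and Csf3r), chosen by gene symbol from the 24062 genes that the 1 day and 3 day count tables share. All 8 were among the 15508 genes tested, although Csf2 and Csf3 had enough reads for the filter only after myocardial infarction (MI). Male C57BL/6 mice aged 8 to 12 weeks were operated on, and RNA was prepared from the left ventricular free wall 1 or 3 days later. MI was made by tying off the left anterior descending coronary artery, and the tissue taken was the ischaemic part, so these libraries do not represent the whole infarcted heart. Sham animals had the operation with no ligation and served as controls at each day. Each of the 4 groups had 2 mice, called libraries A and B here in the order of the count columns.

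Colony-stimulating factors are secreted proteins that keep blood progenitors and mature myeloid cells alive, dividing and active. Macrophage colony-stimulating factor (Csf1) and interleukin 34 (Il34) both bind the receptor tyrosine kinase Csf1r, which macrophages and monocytes carry. Granulocyte-macrophage colony-stimulating factor (Csf2) binds a receptor made of its own alpha chain, Csf2ra, and the common beta chain, Csf2rb, which signals through Jak2 and Stat5, whereas granulocyte colony-stimulating factor (Csf3) binds Csf3r, a receptor of neutrophils and their precursors. In the infarcted heart these factors are known for their part in calling in, and sustaining, neutrophils, monocytes and macrophages.

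Total gene counts were 7382490 to 25041386 per library, with the lowest in MI library B at 1 day and the next lowest, 12662237, in MI library A at 1 day. MI library B at 1 day stood apart: 92.2% of 1491 chemosensory receptor genes, a set picked by symbol after the counts were seen, had reads there, against 23.7% in MI library A and 5.43% and 50.7% in the sham libraries of that day. At 3 days the share was 4.43% to 8.32%. The mitochondrial share of reads in the transcript tables was 28.7% and 43.3% in MI libraries A and B of 1 day, 13.9% to 16.6% in the sham libraries and 6.51% and 4.19% in the MI libraries of 3 days, and its part in the changes was not tested. The median of these genes in MI library B at 1 day was 4 counts, so single-digit counts in that library are given beside this level. Numbers in the sample names lay far apart between MI and sham at 1 day, and any batch these numbers reflect and the surgery cannot be told apart. Of the lineage markers, all 11 cardiomyocyte genes fell at 3 days and 10 of 11 at 1 day, with a summed level of 129890 to 206930 CPM (counts scaled to 10⁶ per library by the TMM method) in sham hearts, 110100 and 116890 CPM at 1 day of MI, and 8916 and 8875 CPM at 3 days. Cardiac muscle was thus present in every library by its defining markers, and was lowest in the MI libraries of 3 days.

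In RefSeq (build GRCm38.p6) the ligand genes lie at chr3:107741048-107760469 (Csf1), chr11:54247270-54249899 (Csf2), chr11:98700183-98703631 (Csf3) and chr8:110741829-110805949 (Il34). Csf2ra lies at chr19:61217191-61228461 and Csf3r at chr4:126023441-126044975. For 4 members a RefSeq promoter window was at hand (build GRCm38.p6, 250 bases before to 50 bases after the start site), and 3 are printed here because Csf2ra and Csf3r are receptor genes that rose at both days and Csf1 is the ligand gene with the most reads. The windows lie at chr19:61228369-61228668 on the minus strand for Csf2ra, chr4:126024409-126024708 on the plus strand for Csf3r and chr3:107760420-107760719 on the minus strand for Csf1. The start sites of the Csf2ra and Csf3r windows lie inside the genes as placed above. For Csf3r the whole window does, so its start site is an internal one and not the gene's 5′ end. Each is written 5′ to 3′ along its gene, and capitals mark matches to any of 6 motifs described after them.

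Csf2ra: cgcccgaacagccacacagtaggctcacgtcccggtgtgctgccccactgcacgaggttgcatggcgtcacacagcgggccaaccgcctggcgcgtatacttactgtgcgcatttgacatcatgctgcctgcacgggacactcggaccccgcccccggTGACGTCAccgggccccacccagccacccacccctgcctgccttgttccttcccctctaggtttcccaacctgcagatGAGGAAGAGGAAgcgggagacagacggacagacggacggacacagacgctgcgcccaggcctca

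Csf3r: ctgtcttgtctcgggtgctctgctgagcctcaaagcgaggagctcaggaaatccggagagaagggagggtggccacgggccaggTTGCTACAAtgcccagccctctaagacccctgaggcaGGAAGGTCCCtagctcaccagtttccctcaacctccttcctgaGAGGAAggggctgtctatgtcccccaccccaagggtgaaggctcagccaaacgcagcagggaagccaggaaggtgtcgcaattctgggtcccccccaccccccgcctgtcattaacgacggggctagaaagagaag

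Csf1: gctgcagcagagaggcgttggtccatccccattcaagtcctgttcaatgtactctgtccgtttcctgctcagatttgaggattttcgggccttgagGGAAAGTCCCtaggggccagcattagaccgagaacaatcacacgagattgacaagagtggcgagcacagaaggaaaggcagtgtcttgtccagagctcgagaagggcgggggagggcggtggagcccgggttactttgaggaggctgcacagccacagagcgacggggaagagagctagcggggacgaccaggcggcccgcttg

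The Csf2ra and Csf3r windows both hold GAGGAA, the core read by PU.1, the transcription factor encoded by Spi1 that directs myeloid development. It occurs back to back in Csf2ra, starting 14 and 8 bases before the start site, and once in Csf3r, 86 bases before it. On both strands, 28.3% of all 32851 RefSeq windows hold it. Csf2ra also holds the cyclic AMP response element TGACGTCA 92 bases before the start site, present in 1.79% of windows. Csf3r also holds TTGCNNCAA, a C/EBP motif present in 2.08% of windows, at 166 bases before the start site, and a match to the NF-kB consensus at 129 bases before it. The NF-kB consensus, met by 8.46% of windows, was the single match in Csf1, at 154 bases before the start site. AP-1 (TGANTCA, 7.81% of windows) and Runx (TGTGGT, 16.8%) had no match in any of the 4 windows, the 2 PU.1 matches in Csf2ra adjoin, and no other matches overlap. The fourth window, of Csf2, held none of the 6 motifs. A match describes the letters and is not evidence of binding.

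At 1 day, 6 of the 8 members rose in MI against sham by edgeR's quasi-likelihood test (Benjamini-Hochberg adjusted over all genes tested, threshold 0.05), where 39.0% of all genes tested were called and 19.3% were called higher. These were the ligands Csf1, Csf2 and Csf3 and the receptor chains Csf2ra, Csf2rb and Csf3r. Csf2 and Csf3 entered the test only through the groups where they were high, so their calls cannot be read against that background; of the other 6 members, all with reads in every library, 4 rose. At 3 days, 4 members rose, all receptor chains (Csf1r, Csf2ra, Csf2rb and Csf3r), against a background of 55.4% called and 31.7% called higher. The 4 of 8 called lie near the 55.4% of all genes called in either direction. The call of Csf1r was lost in 11 of 16 alternatives. None of the 8 was called lower at either day. With a library left out, 3 members were called at 1 day without sham library A or B of that day, and 2 were called at 3 days without MI library A of that day. The median log2 fold change of the members was 2.41 at 1 day and 1.48 at 3 days, with Csf2 and Csf3 counted in. It therefore cannot be read against the median over all genes tested, 0.12 and 0.16. Setting Csf3 at its lower bound left it the same, as it must while Csf3 stays above the middle. Groups did not overlap for 7 of 8 members at either day, where 67.3% of genes at 1 day and 81.0% at 3 days did not overlap. The 7 include Csf2 and Csf3 at 1 day and Csf3 at 3 days, so these counts cannot be read against those shares either. In bulk tissue, more cells of a type and more RNA per cell cannot be told apart, which applies to every value given here.

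**Figure D1:**
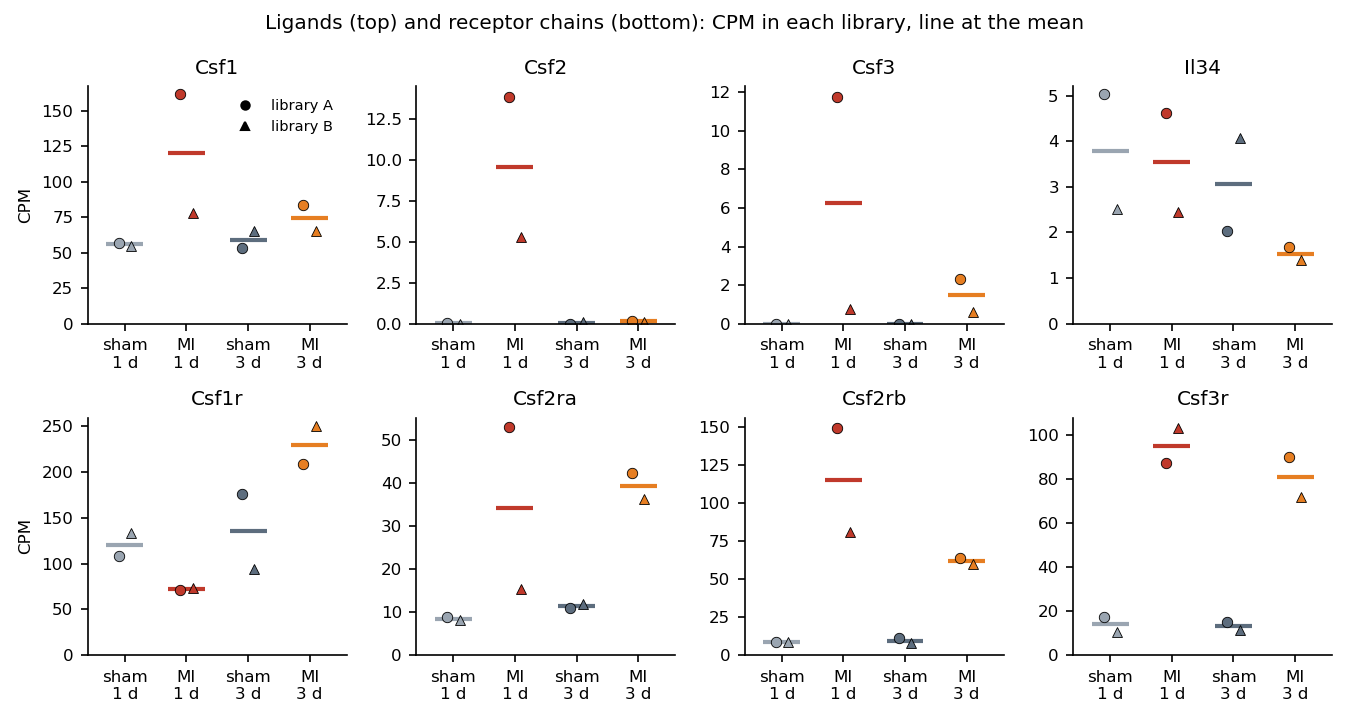
CPM of each member (vertical axis, from 0, with its own range per gene) in every library, by surgery and day, with circles for library A, triangles for library B and a line at the mean of 2. Csf2 is near 0 outside the MI libraries of 1 day, Csf3 is 0 in all sham libraries, and Csf1r is lowest in the MI libraries of 1 day and highest in those of 3 days.

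Csf2, the ligand that drives granulocyte and macrophage production and activation, was nearly confined to the MI libraries of 1 day. Its counts were 171 and 43 in MI libraries A and B at 1 day (13.9 and 5.28 CPM), against 1 and 0 in the sham libraries of that day. At 3 days the counts were 4 and 3 after MI and 0 and 2 after sham. Both MI libraries of 1 day therefore lay far above the other 6, with A at more than B. The summed counts of MI over sham at 1 day, scaled by the TMM effective library sizes, had a ratio of 363. Its exact 95% interval of 64.4 to 14384 covers counting error only. The ratio was 481 with MI library A alone and 183 with B alone. The edgeR fit of all 8 libraries gave an adjusted p = 0.000232 at 1 day. Csf2 entered the test only through the MI libraries of 1 day, so calls that use those libraries cannot be read against all genes tested. At 3 days the ratio of summed counts was 2.44 with an interval of 0.465 to 24.1 (adjusted p = 0.646, edgeR). Within MI hearts, 1 day exceeded 3 days by 80.3-fold with an interval of 38.3 to 202 (log2 fold change of 3 days over 1 day -6.19 ± 0.70 SE, adjusted p = 5.06e-05, edgeR). In MI library B at 1 day, 3 of 1491 chemosensory genes reached the Csf2 count of 43.

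Csf3, which drives the release of neutrophils from the marrow, had 0 counts in all 4 sham libraries. The MI libraries of 1 day held 145 and 6 counts (11.7 and 0.737 CPM), and those of 3 days held 57 and 18 (2.33 and 0.612 CPM). All 4 MI libraries thus had reads, with A above B at either day. With the floor of 3 counts over the group, Csf3 was at least 85.3-fold higher in MI than in sham at 1 day (adjusted p = 0.0192, edgeR). That bound was at least 136-fold with MI library A alone and at least 8.52-fold with B alone, and the adjusted p of the same test was 0.177 without library A and 0.108 and 0.104 without sham library A or B of 1 day. In library B, 526 of 1491 chemosensory genes (35.3%) had at least as many counts as the 6 of Csf3, and the part of this background in the Csf3 count was not tested. At 3 days Csf3 was at least 17.4-fold higher, and at least 29.2-fold with MI library A alone and 7.66-fold with B alone. Without MI library A of 3 days the adjusted p was 0.406, and 6 of 16 alternatives called Csf3 at 3 days. With all libraries, edgeR's adjusted p was 0.0974 while the authors' deposited table gives a log2 change of 4.91, signed here as MI over sham, and an adjusted p of 0.000169. DESeq2 on the same counts gave an adjusted p of 0.00125 at 3 days. The 1 day and 3 day levels after MI overlapped (log2 fold change -2.28 ± 0.94 SE, adjusted p = 0.0828, edgeR); without MI library B of 1 day this was -3.05 (adjusted p = 0.0101), and without MI library A of 1 day it turned to 0.86 (adjusted p = 0.637).

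Csf1, the survival factor of the macrophage lineage, was the ligand with the most reads. Levels were 56.8 and 54.9 CPM in sham libraries and 162 and 77.9 CPM in MI libraries at 1 day, so both MI libraries were above both controls and A was far above B. At 3 days they were 53.2 and 65.1 CPM after sham and 83.2 and 65.1 CPM after MI, where MI library B and sham library B were nearly equal. Csf1 rose 2.16-fold at 1 day (log2 1.11 ± 0.31 SE, adjusted p = 0.0185, edgeR). At 3 days Csf1 was at 0.32 ± 0.30 SE on the log2 scale (adjusted p = 0.386, not called). The change at 3 days minus that at 1 day was -0.79 ± 0.43 SE on the log2 scale and did not pass the test (adjusted p = 0.208). It was -1.21 and passed without MI library B of 1 day (adjusted p = 0.0077, edgeR), and was -0.28 without MI library A of 1 day (0.442). Without MI library A at 1 day the log2 fold change at 1 day was 0.39 (adjusted p = 0.139, edgeR), so the size of the rise rests on that library. The call at 1 day was also lost without sham library A or B of that day (adjusted p = 0.147 and 0.157) and without sham library A or MI library B of 3 days (0.0503 with either left out).

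Il34, the second ligand of Csf1r, known from skin and brain, had low levels throughout. Levels at 1 day were 5.04 and 2.53 CPM in sham libraries and 4.62 and 2.46 CPM in MI libraries, so the groups overlapped. At 3 days they were 2.03 and 4.09 CPM after sham and 1.68 and 1.39 CPM after MI, so both MI libraries were below both controls. Il34 was at -0.03 ± 0.52 SE on the log2 scale at 1 day (adjusted p = 0.97), a sign that turned to 0.24 with library size alone as the scaling. At 3 days it was -1.0 ± 0.52 SE (adjusted p = 0.128, edgeR). Read counts of Csf1 exceeded those of Il34 within every library, by 11.3 to 26.2 times in sham hearts, 35.1 and 31.7 times at 1 day of MI, and 49.6 and 46.7 times at 3 days. The larger ratio after MI thus accompanied a higher Csf1 at 1 day and the lowest Il34 levels of the series at 3 days.

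Csf1r, the receptor of both macrophage ligands, was lower after MI at 1 day, a difference that did not pass the test, and rose at 3 days. Sham libraries of 1 day held 108 and 134 CPM and MI libraries of that day 71.4 and 73.2 CPM, so both MI libraries were lower. Sham libraries of 3 days held 176 and 94.3 CPM and MI libraries 209 and 251 CPM, so both MI libraries were higher, although the controls differed from each other by more than MI library A did from sham library A. On the log2 scale Csf1r changed by -0.74 ± 0.28 SE at 1 day (adjusted p = 0.0593, not called) and 0.76 ± 0.27 SE at 3 days (adjusted p = 0.0358, edgeR). The difference of these effects was 1.5 ± 0.39 SE on the log2 scale and passed the test (adjusted p = 0.0202, edgeR). It was the 1 member of 8 whose effect was called higher at 3 days than at 1 day, where 13.2% of all genes tested were. The difference at 1 day passed the test in 5 of 16 alternatives, DESeq2 among them (-0.80, adjusted p = 0.0236). The call at 3 days was lost in 11 of 16 alternatives, among them DESeq2 (0.63, adjusted p = 0.0658) and every library left out except MI library B of 1 day and sham library A of 3 days (adjusted p = 0.0606 to 0.441 where lost). The call of the difference was lost without sham library B or MI library A of 1 day or either MI library of 3 days (0.0569 to 0.152). The authors' deposited table gives -0.77 with an adjusted p of 0.0309 at 1 day and 0.57 with an adjusted p of 0.112 at 3 days, signed here as MI over sham.

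**Figure D2:**
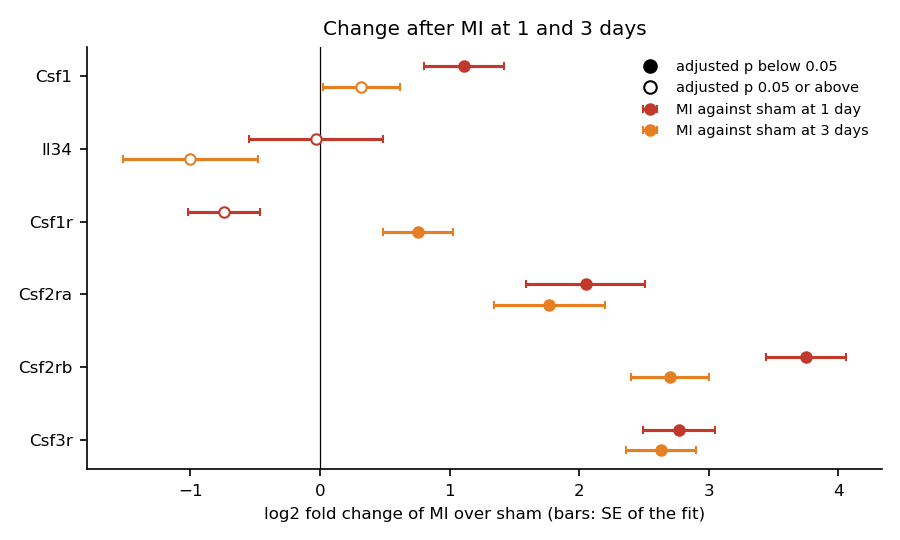
Log2 fold change of MI over sham at 1 day (red) and 3 days (orange), with bars of 1 SE from the edgeR fit of 2 libraries a group; filled points have an adjusted p below 0.05. Csf2 and Csf3 are left out because their sham groups had 0 to 2 counts. Csf1r lies on either side of 0 at the 2 days, at -0.74 and 0.76.

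Csf2ra, the chain that gives the Csf2 receptor its specificity, rose at both days. Its levels were 8.74 and 8.15 CPM in sham libraries and 53.1 and 15.4 CPM in MI libraries at 1 day, the largest ratio between MI libraries among the receptor chains. At 3 days they were 11.1 and 12.0 CPM after sham and 42.3 and 36.4 CPM after MI, with the libraries of a group close together. The rise was 4.15-fold at 1 day (log2 2.05 ± 0.46 SE, adjusted p = 0.00716) and 3.41-fold at 3 days (log2 1.77 ± 0.43 SE, adjusted p = 0.00614, edgeR). The difference of these effects did not pass the test with all libraries (difference -0.28 ± 0.62 SE, adjusted p = 0.777, edgeR). Without MI library A at 1 day, the log2 fold change at 1 day was 0.77, and the difference of the days turned to 0.78 (adjusted p = 0.072, edgeR). Without MI library B at 1 day, the library that stood apart, the difference was -0.88 and passed (adjusted p = 0.029, edgeR). The call at 1 day was lost without sham library A or B of that day (adjusted p = 0.0758 and 0.0832), and that at 3 days without sham library A or MI library A of 3 days (0.0551 and 0.0697).

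Csf2rb, the shared signalling chain of the receptors for Csf2, interleukin 3 and interleukin 5, had the largest rise of the receptor chains at 1 day by its fitted fold change. Sham libraries held 8.45 and 8.78 CPM and MI libraries 149 and 81.0 CPM at 1 day. At 3 days the values were 11.0 and 8.07 CPM after sham and 63.6 and 60.2 CPM after MI. The MI libraries were thus above every control at both days, and those of 3 days lay below those of 1 day. Csf2rb rose 13.4-fold at 1 day (log2 3.75 ± 0.31 SE, adjusted p = 0.000113) and 6.49-fold at 3 days (log2 2.70 ± 0.30 SE, adjusted p = 5.39e-05, edgeR). The difference of these effects was -1.05 ± 0.42 SE and did not pass (adjusted p = 0.10, edgeR). It was -1.42 without MI library B of 1 day (0.00458) and -1.45 without both B libraries of that day (0.0243), and passed in both. The direct comparison of 3 days with 1 day after MI passed with all libraries (-0.90 ± 0.27 SE, adjusted p = 0.021, edgeR), a call lost in 8 of 16 alternatives, those without any 1 library except MI library B of 1 day among them (adjusted p = 0.0538 to 0.0959). Csf2rb2, the neighbouring gene for a second beta chain that pairs with the interleukin 3 receptor, lies at chr15:78282507-78305721 beside Csf2rb at chr15:78325800-78351001 (RefSeq, GRCm38.p6) and is a near copy, so reads could be split between them by the counting. It rose at both days too, by 2.98 ± 0.32 SE at 1 day (adjusted p = 0.00024) and 1.56 ± 0.30 SE at 3 days (adjusted p = 0.00149, edgeR) on the log2 scale, and its effects differed between the days (-1.42 ± 0.44 SE, adjusted p = 0.0421, edgeR). Csf2rb had 1.62 to 2.64 times the counts of Csf2rb2 in sham libraries and 3.14 to 3.91 times in MI libraries.

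Csf3r, through which Csf3 acts on neutrophils, rose by about the same amount at both days. Levels were 17.4 and 10.3 CPM in sham libraries and 87.0 and 103 CPM in MI libraries at 1 day, then 14.8 and 11.3 CPM and 90.1 and 71.6 CPM at 3 days. Every MI library lay far above every control. The rise was 6.84-fold at 1 day (log2 2.77 ± 0.28 SE, adjusted p = 0.000193) and 6.18-fold at 3 days (log2 2.63 ± 0.27 SE, adjusted p = 3.42e-05, edgeR), with a difference of -0.15 ± 0.38 SE (adjusted p = 0.809). Calls at both days were kept in all 16 alternatives run, as were those of Csf2rb. In the deposited transcript tables, the share of Csf3r reads on ENSMUST00000030673 was 14.4% and 22.2% in sham libraries and 45.2% and 36.8% in MI libraries at 1 day, whereas at 3 days the sham libraries, at 41.5% and 12.4%, spanned the MI libraries, at 29.6% and 26.4%. The counterpart ENSMUST00000106162 held 73.4% and 58.9% in sham and 34.9% and 45.0% in MI at 1 day. These shares are descriptions, since reads common to both transcripts are assigned by the authors' software.

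Comparing 3 days with 1 day within the same surgery uses the same libraries as the comparisons above. After MI, Csf1r was higher at 3 days (3.18-fold, log2 1.67 ± 0.28 SE, adjusted p = 0.00113, edgeR), 1 member where 23.4% of all genes tested were called higher. Csf2 and Csf2rb were lower, 2 members where 22.0% of all genes tested were called lower. Csf2 entered the test only through the MI libraries of 1 day, so its call cannot be read against that share. The other values on the log2 scale were -0.70 for Csf1 (adjusted p = 0.0826), -1.27 for Il34 (0.09), 0.16 for Csf2ra (0.766) and -0.23 for Csf3r (0.471), all by edgeR. Without MI library A of 1 day, Csf1 was at -0.15 (0.556) and Csf2ra at 1.28, which passed (0.00191). Csf1 passed in 4 of 16 alternatives, among them DESeq2 (-0.78, adjusted p = 0.0451) and the fit without MI library B of 1 day (-1.13, 0.0016), and Il34 in 1. After sham surgery, edgeR called 0 of 8 members, and 0.0% of all genes tested. There, 0 members and 1210 genes had an unadjusted p under 0.05, limma-voom called 0 genes, and DESeq2 called 60 genes, none of them a member.

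Levels of different genes were compared per kilobase of the longest transcript, which makes the order approximate. That transcript held 32.7% to 56.7% of Csf1 transcript reads and 34.9% to 73.4% of those of Csf3r. The length used can thus be too long for these genes. On this scale Csf1r led in sham hearts with 25.7 ± 3.94 CPM per kb at 1 day and 28.8 ± 12.3 at 3 days (SD, n = 2). Csf1 followed with 13.4 ± 0.312 and 14.2 ± 2.01 CPM per kb, with no overlap between neighbours. Csf2ra came next, at 4.57 ± 0.225 and 6.23 ± 0.358, then Csf3r at 3.99 ± 1.44 and 3.76 ± 0.720, which overlapped Csf2ra at 1 day but not at 3 days, and Il34 and Csf2rb stood at 1.70 to 2.11 and overlapped. At 1 day of MI the order was Csf1 28.7 ± 14.2, Csf3r 27.3 ± 3.28, Csf2rb 24.2 ± 10.1, Csf2ra 18.5 ± 14.4, Csf1r 15.4 ± 0.275, Csf2 12.0 ± 7.58, Csf3 4.42 ± 5.51 and Il34 1.97 ± 0.851 CPM per kb. All neighbours in that order overlapped. At 3 days of MI Csf1r led again with 48.9 ± 6.32, apart from Csf3r (23.2 ± 3.74), Csf2ra (21.3 ± 2.28) and Csf1 (17.8 ± 3.06), neighbours that overlapped. Csf2rb followed at 13.0 ± 0.505, then Csf3 at 1.04 ± 0.862 and Il34 at 0.855 ± 0.112, which overlapped, and Csf2 was last at 0.166 ± 0.0546 CPM per kb.

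**Figure D3:**
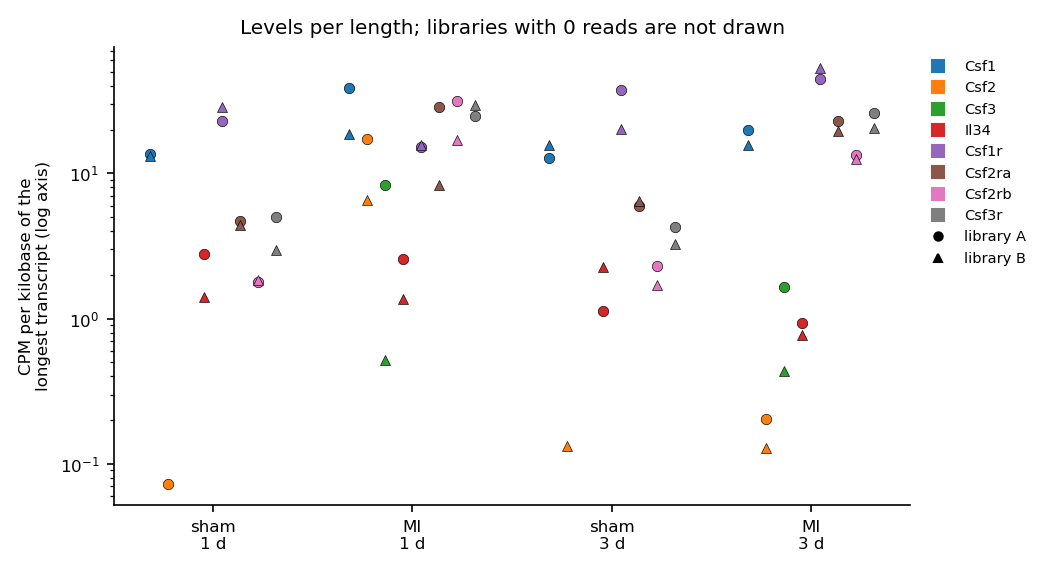
CPM per kilobase of the longest transcript (log axis) for the 8 members, with circles for library A and triangles for library B of 2 a group. Neighbouring members overlap at 1 day of MI, and Csf1r stands above the rest at 3 days of MI and in both sham groups.

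Ratios of 2 members within a library do not depend on the scaling between libraries. Counts of Csf1 were 0.302 to 0.690 times those of Csf1r in the 4 sham libraries, 2.27 and 1.06 times at 1 day of MI and 0.399 and 0.260 times at 3 days. Ligand thus exceeded receptor in counts only in the 2 MI libraries of 1 day, although these counts are not corrected for length. Csf3r to Csf1r was 0.0772 to 0.162 in sham libraries, 1.22 and 1.41 at 1 day of MI and 0.432 and 0.286 at 3 days, so the neutrophil receptor had more counts than the macrophage receptor in the MI libraries of 1 day and fewer in the other 6. For the 2 chains of the Csf2 receptor, Csf2rb to Csf2ra was 0.673 to 1.08 in sham libraries, 2.81 and 5.27 at 1 day of MI and 1.5 and 1.65 at 3 days. The beta chain thus gained on the alpha chain in all 4 MI libraries.

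**Figure D4:**
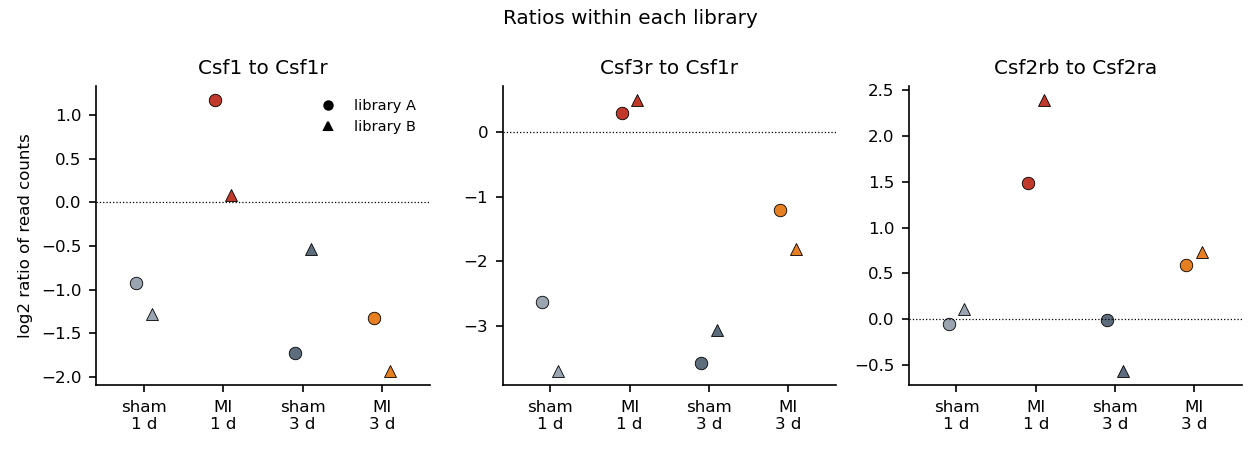
Log2 ratio of read counts of 2 members within each library (vertical axis; dotted line at equal counts), with circles for library A and triangles for library B. Csf1 to Csf1r and Csf3r to Csf1r are above 0 only in the MI libraries of 1 day, and Csf2rb to Csf2ra is above every control in all 4 MI libraries.

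Markers of the cells that carry these receptors also changed after MI, and their part in the changes was not tested. Over all genes tested, 39.0% were called at 1 day, with 19.3% higher, and 55.4% at 3 days, with 31.7% higher. Of 16 tested neutrophil markers, 13 rose and 0 fell at both days (by edgeR, as all counts here), among them Trem1 (log2 6.00 at 1 day and 4.47 at 3 days) and Cd177 (5.94 and 1.83). Their summed level was 130 to 245 CPM in sham libraries, 2804 and 1453 CPM at 1 day of MI and 1045 and 532 CPM at 3 days. Csf3r stood at 71.6 to 103 CPM in all 4 MI libraries, while the neutrophil sum was lower in both MI libraries of 3 days than in either of 1 day. Of 20 tested monocyte and macrophage markers, 9 rose and 4 fell at 1 day, and 16 rose and 3 fell at 3 days, with Arg1 (6.90 and 6.39) and Chil3 (6.06 and 4.43) the largest. Their sum was 1093 to 2076 CPM in sham libraries, 1901 and 2112 CPM at 1 day of MI and 9143 and 8942 CPM at 3 days. No gene of either list was at 0 throughout a group except Elane, at 0 in both groups of 3 days, and Ly6g and Adgre1 were not analysed here.

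**Figure D5:**
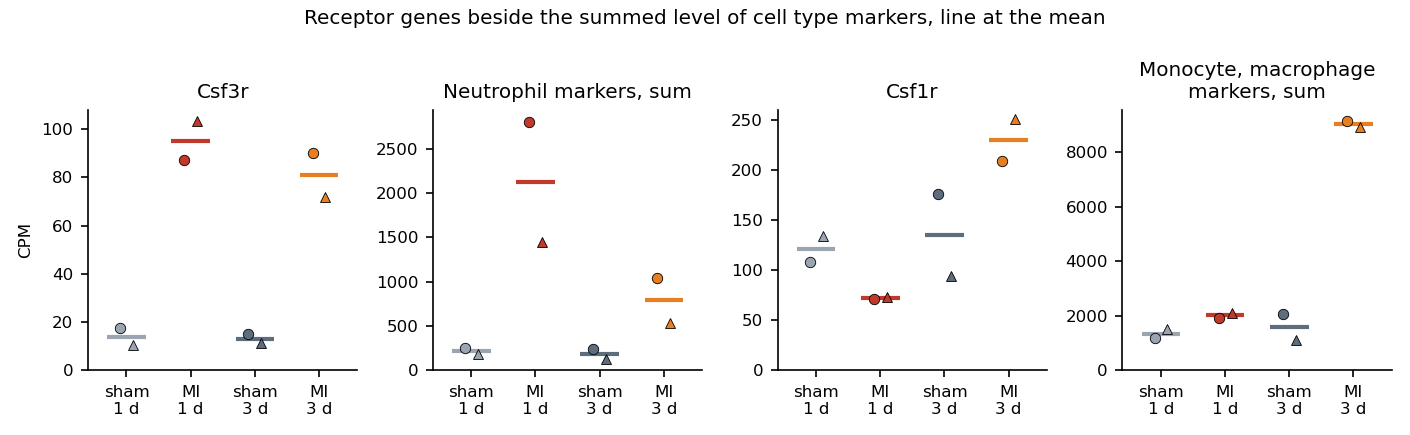
CPM of Csf3r and Csf1r beside the summed CPM of neutrophil markers and of monocyte and macrophage markers (vertical axes from 0), with circles for library A, triangles for library B and a line at the mean of 2. The neutrophil sum is highest at 1 day of MI and the macrophage sum at 3 days, at 9143 and 8942 CPM, as is Csf1r.

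Among the other cell types, 4 of 10 dendritic cell markers rose at 1 day and 5 rose and 1 fell at 3 days, with Itgax at 2.79 and 4.14 and Cd209a at 2.31 and 3.87 on the log2 scale. Of 5 tested mast cell and eosinophil markers 0 changed at 1 day by edgeR, and 1 rose (Ccr3, 2.78) and 3 fell (Tpsb2, -2.28, among them) at 3 days. Of 11 tested T, B and NK cell markers, 2 rose at 1 day and 4 at 3 days. Among the latter were Ms4a1 (2.74) and Cd79b (1.98). These counts lie near the shares of all genes tested that were called higher, 19.3% at 1 day and 31.7% at 3 days. Fibroblast markers numbered 1 up and 5 down of 11 at 1 day and 7 up and 1 down at 3 days (Postn 1.18 and 4.82, Cthrc1 5.48 at 3 days). Endothelial markers numbered 5 up and 1 down of 10, then 3 up and 1 down (Emcn 1.27 and 1.11, Cldn5 1.95 at 1 day). The 3 up at 3 days also lie near the 31.7% of all genes tested. For smooth muscle and pericytes 0 rose and 3 of 9 fell, then 4 rose and 5 fell (Tagln 3.82 at 3 days, Abcc9 -1.15 and -3.47). Abcc9 had 824 CPM in sham hearts of 1 day, and its falls lay near the cardiomyocyte medians of -1.13 and -4.14. The cells its reads came from were not tested. Mesothelial and keratinocyte markers, 7 tested, had 0 calls at either day by edgeR. Cardiomyocyte markers included Myh6 (-1.55 and -5.16) and Atp2a2 (-1.56 and -4.56).

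Genes that act with or after the family were followed in 5 lists. Beside all 5 stand the shares of all genes tested that were called higher, 19.3% at 1 day and 31.7% at 3 days. Of 20 signal transducers, 9 rose and 3 fell at 1 day and 13 rose and 3 fell at 3 days, with median log2 fold changes of 0.62 and 1.14. The Src-family kinase Fgr rose by 4.08 ± 0.46 and 4.02 ± 0.41 (SE, log2), the adaptor Tyrobp by 1.88 ± 0.31 and 3.47 ± 0.32, and the exchange factor Vav1 by 1.54 ± 0.28 and 3.04 ± 0.26 at 1 and 3 days. Of 10 feedback inhibitors, 7 rose and 0 fell at 1 day, and 6 rose and 1 fell at 3 days, with medians of 1.33 and 1.62. Socs3, which blocks signalling by the Csf3 receptor, rose by 2.83 ± 0.51 and 2.37 ± 0.52, with 205 ± 169 CPM at 1 day of MI (SD, n = 2), so its 2 libraries differed widely. The adaptor Dok1 rose at 3 days (3.46 ± 0.28 SE) and was at -0.12 ± 0.34 SE at 1 day (adjusted p = 0.805, edgeR). Cish, a target of Stat5 that restrains it, fell by 3.23 at 3 days (SE 0.39, adjusted p = 9.29e-05, edgeR), the 1 inhibitor that fell, from 60.9 ± 3.49 CPM in sham to 6.52 ± 1.49 CPM in MI (SD, n = 2).

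Of 12 tested myeloid transcription factors, 5 rose and 0 fell at 1 day and 7 rose and 1 fell at 3 days, with medians of 0.94 and 1.88. Spi1, the gene of PU.1, rose by 1.10 ± 0.34 and 2.46 ± 0.32 (SE, log2), Runx1 by 2.79 ± 0.32 and 2.38 ± 0.29, and Egr2 by 2.85 ± 0.78 and 2.89 ± 0.66. Among 9 tested haematopoietic growth factors and receptors outside the family, Csf2rb2 included, 4 rose at 1 day and 5 at 3 days with 0 lower by edgeR, and medians were 0.46 and 0.98. The receptors Il7r (2.58 ± 0.38 and 5.35 ± 0.33), Flt3 (2.76 ± 0.58 and 3.62 ± 0.53) and Kit (3.41 ± 0.32 and 3.07 ± 0.30) rose at both days. Of the 3 other binding partners of Il34, 1 rose at 1 day and 2 at 3 days: the proteoglycan Sdc1 by 1.93 ± 0.21 and 3.72 ± 0.21, and Trem2, a receptor of macrophages, by 4.38 ± 0.41 at 3 days after -0.77 ± 0.53 at 1 day (adjusted p = 0.273, edgeR). Their other member, Ptprz1, was not called at either day.

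For each member, the genes whose log2 CPM followed it most closely over the 8 libraries were found among 12901 genes, as a description, since the libraries share surgery, day and cell makeup. Csf2rb was closest to Itgam, the integrin chain of neutrophils and macrophages (Pearson r = 0.996), then Sgms2 and Pygl. Csf3r was close to Kit (0.992) and Il1rap (0.992). Csf2ra was nearest to Mtdh (0.99), Bach1 and Hmha1, and Csf1r to Bmper (0.986), Rin2 and H2afy2. Among the ligands, Csf1 was nearest to Smox (0.995), Zswim4 and Brd2, and Csf2 to Phactr4 (0.998), Camsap2 and Akap12. Csf2 had at most 4 counts in any library outside the MI libraries of 1 day, so its r rests on those libraries. For Csf3, which had 0 counts in every sham library, the nearest were Mxd1 (0.988), Fmnl1 and Diap1. Il34 was close to Ccrn4l (0.976) and Zbtb39 (0.97).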

How the data were processed

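Per the labels' protocols, ribosomal RNA was removed from total RNA before paired-end sequencing. The build mm10 was used with a set of tools that includes TopHat2 2.0.14, Bowtie2 2.2.5 and HTSeq, per the submitters' processing notes, which give no roles. The strand setting was not given in the sources used here, and antisense or overlapping genes may share reads. The authors deposited read counts per gene symbol, unnormalised, in 1 table per day. Columns name the group but no replicate, and both sham columns of 1 day have the same header. They also deposited a DESeq2 table per day, with a mean normalised signal, and, per the file headers, a log2 fold change with its error and p-values. Its sign was taken from the counts: 97.9% of genes had the sign of MI over sham at 1 day and 5.12% at 3 days, so it is sham over MI there. Total read counts per transcript come from the authors' transcript tables and serve as an alternative and for transcript shares.

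An edgeR model (edgeR 4.0.16, R 4.3.3) with a term per group took the counts of all 8 libraries (filterByExpr, TMM, robust quasi-likelihood, 2-sided F test, 4 residual degrees of freedom), with Benjamini-Hochberg adjustment over 15508 genes; 8554 were not tested. The SE was worked back from the fit, as the absolute log2 fold change over the square root of the F statistic. Permuting 2 against 2 libraries cannot give an exact p below 0.333, so single values were not tested that way. The labels call the 2 mice of a group biological replicates. Intervals of count ratios are exact binomial 95% intervals, and for 0 counts a floor of 3 counts over the group was used; both cover counting error only. The script was tested on simulated counts. Motifs were searched in RefSeq promoters of GRCm38.p6, the assembly mm10 names, and coordinates are those of RefSeq. Gene names matched for all 8 members, promoters for 4.

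Members, the 5 pathway lists and the 10 marker lists were chosen with earlier results of these data known. Named genes are the 8 members, up to 3 called genes of a pathway list and up to 2 of a marker list with the largest change at either day and at least 1 CPM on average, and the 3 genes most correlated with each member, of which some are not reported here; Ptprz1, Csf2rb2 and Elane were named after their values were seen. Alternatives were limma-voom (limma 3.58.1), DESeq2 1.42.0, its size factors in edgeR, library size alone, no count filter, the compared groups alone, transcript reads, each library left out, and, added after seeing the data, both B libraries of 1 day left out.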

Additional observations from a re-analysis of the deposited data

Results flagged for a closer look

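The change of Csf1r after MI at 3 days minus that at 1 day was 1.5 on the log2 scale (SE 0.39, adjusted p = 0.0202 by edgeR over all genes tested). It is listed because the test of the difference itself passed: both MI libraries of 1 day were below both of their controls, and both MI libraries of 3 days were above theirs. Any batch behind the sample numbers of the MI libraries of 1 day cannot be told apart from this difference. The call was kept in 10 of 15 alternatives and lost without sham library B or MI library A of 1 day, without either MI library of 3 days, and without both B libraries of 1 day, with differences of 1.19 to 2.10 over all alternatives.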

How the results depend on the processing

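No paired analysis was possible because the count columns carry no replicate number. The number of members called moved by over 1.5 times in these cases. With each library left out in turn it ranged from 3 to 7 at 1 day (6 with all libraries; 3 without either sham library of 1 day, where Csf1, Csf3 and Csf2ra lost their calls), from 2 to 5 at 3 days (4 with all), from 0 to 4 for the difference of the days (1 with all) and from 2 to 5 for 3 days against 1 day after MI (3 with all). For the difference, DESeq2 called 2 members (Csf1r and Csf2). Without both B libraries of 1 day, 2 members (Csf1 and Csf2rb) were called for the difference and 6 for 3 days against 1 day after MI. After sham surgery 0 members were called by edgeR, DESeq2 or limma-voom.

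Directions turned for values that were not called with all libraries. Il34 at 1 day (-0.71 to 0.50 with a library left out) was 0.01 by limma-voom, 0.24 with library size alone, 0.50 without sham library A and 0.29 without MI library B. Csf1 at 3 days (up to 0.49) was -0.08 without MI library A. The difference of the days for Csf2ra (-0.88 to 0.78) was 0.78 without MI library A of 1 day and 0.02 with transcript reads, and for Csf3r (-0.50 to 0.27) it was 0.27 without sham library B of 1 day, 0.14 without sham library A of 3 days, 0.06 with transcript reads and 0.31 without both B libraries of 1 day. From 1 to 3 days after MI, Csf3 (-3.64 to 0.86) was 0.86 without MI library A of 1 day, and Csf2ra (-0.43 to 1.28) was -0.43 without MI library B of 1 day or both B libraries and -0.10 without MI library A of 3 days. Library size alone moved the median of all genes by 0.28 at 1 day and 0.26 at 3 days, and DESeq2 size factors by -0.13 at 3 days; relative to it the calls of Csf2ra, Csf2rb and Csf3r were kept. Of the results whose direction turned, some grew in size with 1 MI library of 1 day left in its group. The Csf2ra difference of the days was -0.88 without MI library B of 1 day. From 1 to 3 days after MI, Csf3 was at -3.05 without that library and -3.04 without both B libraries of 1 day. Over the same days Csf2ra was at 1.28 without MI library A of 1 day. The cause of these changes was not tested. Depth limits Csf2 at 3 days and Csf3 in MI library B of 1 day, with 2 to 7 summed counts and 6 counts.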
